A study of Mus musculus with 49 samples.

Results

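The replication-dependent histone genes encode the bulk of the histones that package newly made DNA: the core histones H2A, H2B, H3 and H4, which form the nucleosome, and the linker histone H1, which binds the DNA that enters and leaves it. They are transcribed mainly in S phase, and their mRNAs as a rule carry no poly(A) tail but end in a stem-loop that is bound by the protein SLBP, which governs their processing, translation and decay. Genes whose symbol starts with Hist1h, Hist2h, Hist3h or Hist4h and whose expression was above 0 in at least 3 of 49 samples were taken as members, which gave 58 of the 38253 genes in the deposited table. They comprised 6 H1, 17 H2A, 16 H2B, 7 H3 and 12 H4 genes. Of 70 such genes in the annotation, 59 had a row in the table and the other 11 were not analysed here. The gene just outside the limit, Hist1h2aa, was above 0 in 1 sample, and the gene just inside, Hist1h2al, was above 0 in 3 samples.

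RNA was sequenced from sorted C57BL/6J mouse bone marrow cells, from mice 6 to 12 weeks old, and from acute myeloid leukaemias that were induced in such cells. The 6 normal populations held 5 samples each of long-term stem cells (LT-HSC), short-term stem cells (ST-HSC), CMP (the common progenitor of myeloid cells) and GMP (the progenitor of granulocytes and macrophages), 6 of the multipotent progenitor (MPP) and 4 of MEP, the progenitor of megakaryocytes and red cells. The 4 leukaemia groups were named by the cell that was transduced, with 3 samples of STHSC:MA9, 6 each of MPP:MA9 and GMP:MA9, and 4 of CMP:MA9. MA9 is MLL-AF9, a fusion oncogene delivered with GFP by an MSCV retrovirus, after which the cells were transplanted into sublethally irradiated mice. The labels give genotype WT and bone marrow for all groups, whereas the methods describe leukaemia samples as bulk GFP-positive cells from the spleen, so leukaemia and normal samples may also differ in tissue. Leukaemia samples were not gated for stemness markers: Kit, a receptor used in the sorting gates of normal cells, was at 0.33 to 5.94 FPKM in the 19 leukaemias and at 43.2 to 152 FPKM in the 30 normal samples. Values are FPKM, fragments scaled to transcript length and to library size, which does not adjust for GC content or for sequence shared between genes. Fewer cells in S phase and less histone mRNA per cell cannot be told apart in such bulk samples.

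Most members lay in clusters, with 45 on chromosome 13, 10 on chromosome 3 and 3 on chromosome 11. Their genes were short, with a median merged exon length of 538 bases (312 to 3821) against 1650 bases over all annotated genes, and rich in G and C, at a median of 58.84% against 48.41%. A total of 51 of the 58 had single-exon transcripts only, and 3 were annotated as pseudogenes (Hist1h2aj, Hist2h3c2 and Hist3h2bb-ps). The stem-loop sequence was found within 150 bases after the stop codon in 50 of the 55 members with an annotated stop codon, at a median of 30 bases. It was not found in that window for Hist1h2al, Hist1h2an, Hist1h4a, Hist2h2bb and Hist2h2be. Among the sequences that the search pattern allowed, 6 different versions occurred, and 31 members shared 1 of them. The versions in the most abundant member of each class, and the other H4 versions, are given here with 5 flanking bases on either side, in genome build NCBIM37 (mm9), with the 16 bases of the stem-loop in capitals.
Hist1h1e, chr13:23713646-23713671, minus strand: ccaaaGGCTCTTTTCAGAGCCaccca
Hist1h2ak, chr13:21845246-21845271, minus strand: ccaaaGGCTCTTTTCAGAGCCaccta
Hist1h2bk, chr13:22128164-22128189, plus strand: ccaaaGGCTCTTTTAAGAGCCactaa
Hist2h3b, chr3:96073053-96073078, plus strand: acaaaGGCTCTTTTCAGAGCCaccta
Hist1h4d, chr13:23673814-23673839, plus strand: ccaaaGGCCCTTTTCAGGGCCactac
Hist1h4i, chr13:22132830-22132855, minus strand: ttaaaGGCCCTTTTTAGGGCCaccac
Hist1h4j, chr13:21827301-21827326, plus strand: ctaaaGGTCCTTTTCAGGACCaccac

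The search pattern fixed the first 2 bases as GG and the last 2 as CC. It allowed only C or T in the rest of the first arm of the stem, and only A or G in the rest of the second. It also fixed the T and A that close the stem and a T in the loop, and barred G at some other loop bases. Sameness of all versions in these respects is therefore not a result. The stem found in 31 members, as in Hist1h1e, Hist1h2ak and Hist2h3b, was shared across classes. The GGCCC and GGTCC forms, in Hist1h4d, Hist1h4i and Hist1h4j, occurred in H4 genes alone. The promoters of 51 members were matched to RefSeq windows of 250 bases before to 50 bases after the start. The octamer ATTTGCAT, searched on both strands, was found in 12 of them (23.5%), against 1.97% of 27025 promoters, and these 12 were 6 of 15 H2A and 6 of 13 H2B genes. These are not all separate sites. The windows of Hist1h2ae and Hist1h2bg, and those of Hist1h2ah and Hist1h2bk, overlap on opposite strands, and the same octamer is counted for both genes. The TATA box letters TATAAA stood in 58.8% of member promoters against 15.7% of all, and CCAAT in 84.3% against 41.1%. Only 3 of 11 H4 promoters held CCAAT, whereas it was found in each matched H1, H2A, H2B and H3 promoter. The 160 bases before the start are printed for Hist1h2bg and Hist1h2ac, which fell in leukaemias of all 4 origins, and for the H4 gene of highest level, Hist1h4d, from RefSeq GRCm38.p6, with these 3 motifs in capitals on either strand.
Hist1h2bg, chr13:23571240-23571399, plus strand: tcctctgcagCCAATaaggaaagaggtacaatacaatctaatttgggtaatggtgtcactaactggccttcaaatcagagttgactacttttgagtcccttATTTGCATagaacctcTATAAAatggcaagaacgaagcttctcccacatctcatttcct
Hist1h2ac, chr13:23683960-23684119, minus strand: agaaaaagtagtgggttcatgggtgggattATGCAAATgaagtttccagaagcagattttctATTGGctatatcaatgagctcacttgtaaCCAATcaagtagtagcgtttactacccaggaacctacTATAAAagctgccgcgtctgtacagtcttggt
Hist1h4d, chr13:23581408-23581567, plus strand: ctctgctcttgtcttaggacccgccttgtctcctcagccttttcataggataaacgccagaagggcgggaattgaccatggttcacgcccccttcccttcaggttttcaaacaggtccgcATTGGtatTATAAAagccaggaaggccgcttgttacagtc

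Members resemble each other, which limits how surely reads can be given to 1 gene. A median of 53.07% of the 31-base stretches of a member's exons also occurred in another gene, and this share was over 50% in 35 members. Hist2h2aa1 and Hist2h2aa2 were identical, as were Hist1h2bq and Hist1h2br, and Hist2h2ab lay whole within Gm15444, on the other strand, so the single values of these genes are uncertain and class sums are given beside them. Exons of 8 members overlapped another gene, among them Hist1h2ac, Hist1h2be and the pair Hist2h2aa1 and Hist2h3c1.

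Some stem cell libraries stood apart before any histone gene was considered. S100a8, a gene of mature granulocytes, exceeded 1000 FPKM in LT-HSC replicates 4 and 5 (20265 and 10324 FPKM) and ST-HSC replicates 4 and 5 (12625 and 2201 FPKM), and was at 6.49 to 352 FPKM in the other 6 stem cell libraries. The sum of 5 granulocyte markers (S100a8, S100a9, Ltf, Camp and Ngp) ranged from 592 to 42648 FPKM in leukaemias, from 1653 to 10956 in GMP and from 10.6 to 2986 FPKM in MPP, CMP and MEP. That of the monocyte markers Csf1r, Ly6c2 and Itgam was 633 to 1750 FPKM in leukaemias and 1242 to 2105 FPKM in GMP, and 4.69 to 591 FPKM in the other 5 normal groups. The T and NK cell genes Cd3e, Cd3g and Nkg7 summed to at most 24.0 FPKM in leukaemias and to 43.5 to 773 FPKM in normal samples, highest in GMP, where nearly all of it was Nkg7. Of red-cell genes, Hbb-b1 reached 44047 FPKM in LT-HSC and 24164 FPKM in ST-HSC and was at 148 to 1619 FPKM in MEP, 73.5 to 643 FPKM in CMP and 6.55 to 462 FPKM in leukaemias. Hba-a1 ranged from 1.84 to 108 FPKM in leukaemias and up to 6442 FPKM in LT-HSC, and Klf1, an erythroid transcription factor, was at 107.9 to 128 FPKM in MEP, 13.4 to 80.8 FPKM in CMP and at most 0.61 FPKM in leukaemias. The B cell genes Cd79a and Ebf1 were at up to 46.4 and 18.0 FPKM in MEP, 38.1 and 12.3 FPKM in LT-HSC and 25.3 and 4.11 FPKM in ST-HSC. They were at up to 2.49 and 0.94 FPKM in CMP and up to 1.43 and 0.56 FPKM in leukaemias. Mitochondrial genes held 12.5 to 36.7% of summed FPKM over all samples, and group means ran from 15.9% in MPP:MA9 to 32.4% in LT-HSC.

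In normal cells, total histone mRNA was highest in MEP and lowest in LT-HSC and GMP. Summed over the 58 genes, the level was 4791 ± 384 FPKM in MEP (SD, n = 4), 3447 ± 615 in MPP (n = 6), 2983 ± 618 in ST-HSC (n = 5), 2968 ± 532 in CMP (n = 5), 1895 ± 491 in GMP (n = 5) and 1833 ± 621 in LT-HSC (n = 5). Every MEP sample, the lowest at 4374 FPKM, was above every MPP sample, the highest at 4195 FPKM, and the lowest CMP sample at 2573 FPKM was just above the highest GMP sample at 2558 FPKM. MPP, ST-HSC and CMP overlapped, as did GMP and LT-HSC. These sets also overlapped each other, as LT-HSC reached 2626.5 FPKM, while MPP went down to 2462 FPKM and ST-HSC to 2037 FPKM. Differences in these sums were not tested. The leukaemias were at 1851 ± 208 FPKM in CMP:MA9 (n = 4), 1729 ± 466 in MPP:MA9 (n = 6), 1505 ± 176 in STHSC:MA9 (n = 3) and 1174 ± 353 in GMP:MA9 (n = 6), and these 4 groups overlapped with their neighbours. The 58 genes together made up 0.122 to 0.560% of summed FPKM in normal samples and 0.0787 to 0.292% in leukaemias.

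**Figure D1:**
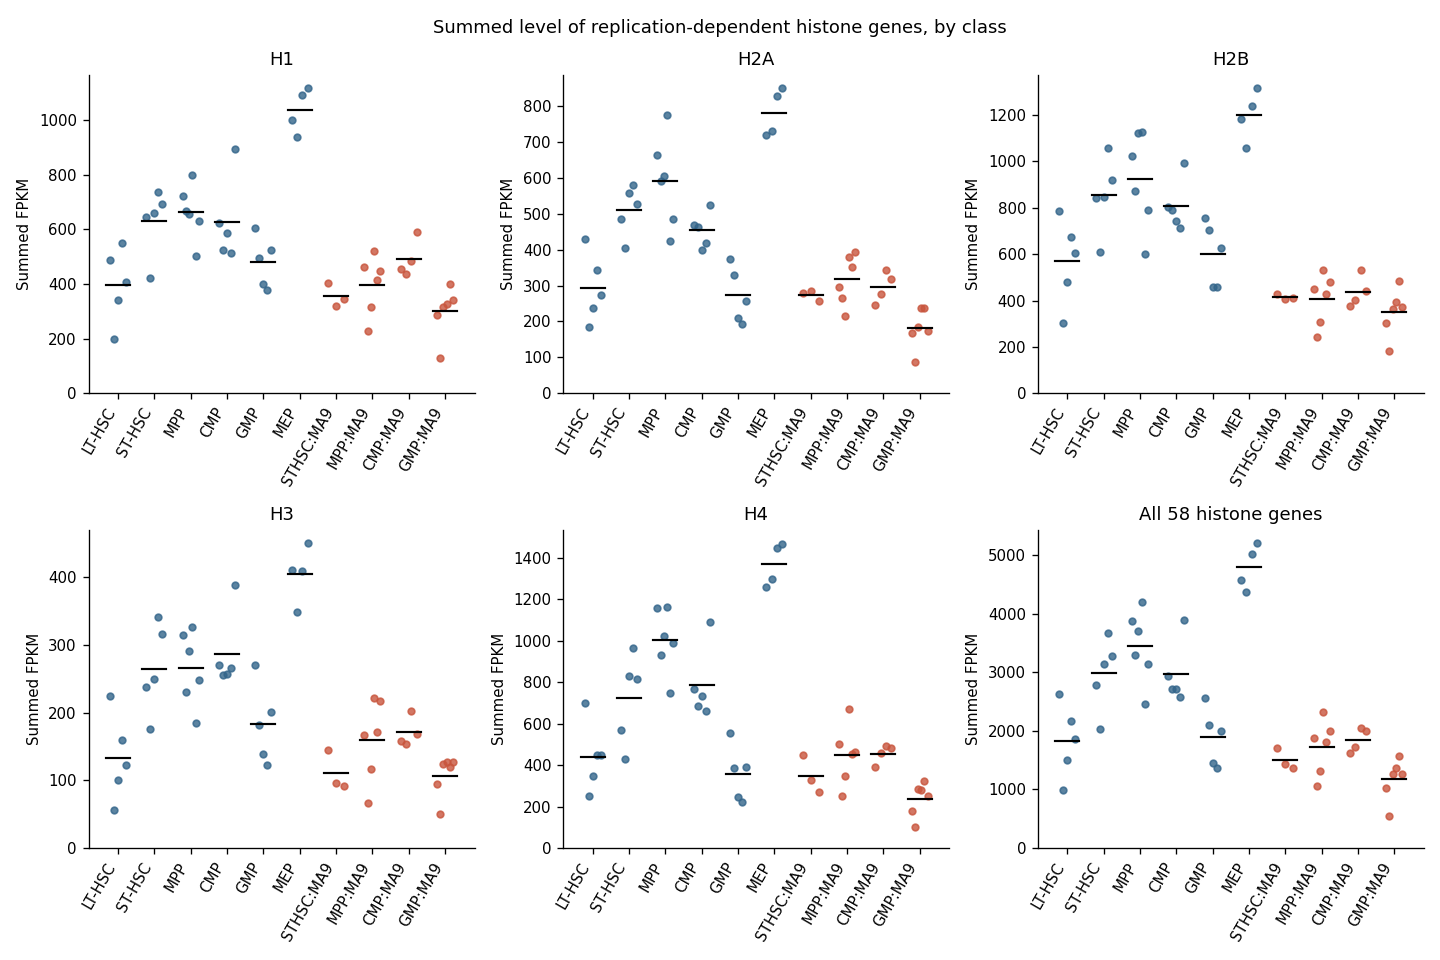
Summed FPKM of the members of each histone class and of all 58 genes (y axis, linear from 0) in each sample, by group (x axis). Points are samples, normal groups in blue and leukaemias in red, and black lines are group means; the 4 MEP samples, at 4374 to 5202 FPKM over all members, are above all other samples.

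The 5 classes moved together. Across the 30 normal samples, Pearson correlations between class sums on the log2 scale were 0.88 to 0.96, and across the 19 leukaemias 0.77 to 0.92, as a description of samples that share library effects. Among the members, each class was dominated by a few genes. Annotated genes without a row, such as the H3 genes Hist1h3f and Hist1h3h, are not in these sums. Hist1h4d made up on average 89.9% of the H4 sum, Hist2h3b 62.8% of the H3 sum, Hist1h1e 57.6% of the H1 sum, Hist1h2bk 37.7% of the H2B sum and Hist1h2ak 32.3% of the H2A sum. At the low end, the testis genes Hist1h1t and Hist1h2ba had mean levels of 0.120 and 0.0733 FPKM. Both had values above 0 in a minority of samples, 23 and 8 of 49.

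**Figure D2:**
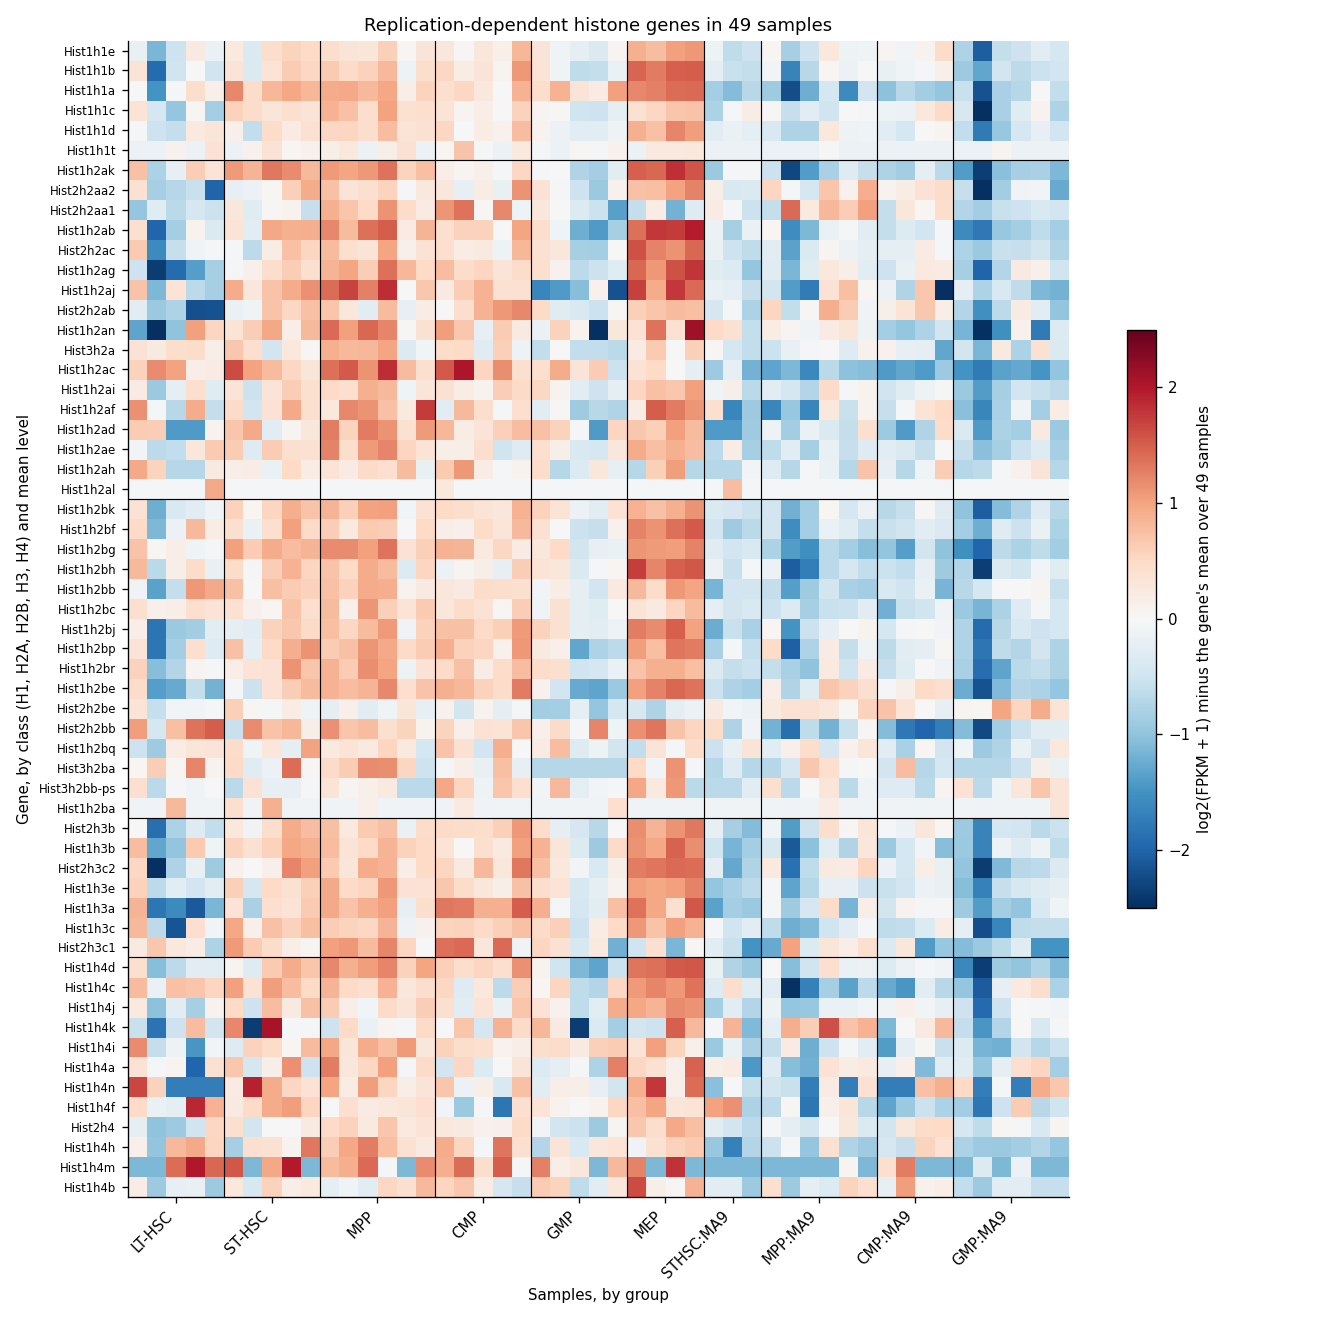
Level of each of the 58 genes (rows, by class and mean level) in 49 samples (columns, by group), as log2(FPKM + 1) minus the gene's mean over all samples; red is above and blue below that mean. Most rows are red in MEP and MPP and blue in the leukaemias, where the second GMP:MA9 sample is lowest at a summed 546 FPKM.

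From normal cell to leukaemia, histone genes were lower at all 4 origins. The question is how the transcriptome of a leukaemia relates to that of the cell it arose in, and each leukaemia group was compared with its own cell of origin by limma on log2(FPKM + 1). A gene was called where the Benjamini-Hochberg adjusted p was below 0.05 and the absolute log2 change above 1, over 12600 genes of which 51 were members. Called lower were 20 of 51 members in STHSC:MA9 against ST-HSC (39.2%), beside 11.9% of all genes tested, and 27 of 51 in MPP:MA9 against MPP (52.9%), beside 13.6%. In CMP:MA9 against CMP, 11 of 51 were lower (21.6%), beside 14.8% of all genes, and in GMP:MA9 against GMP, 8 of 51 (15.7%), beside 8.87%. The only member called higher in any of these comparisons was Hist2h2be in GMP:MA9, beside 13.5% of all genes called higher there. The median log2 change of members was −0.94, −1.05, −0.77 and −0.61 in this order of origins, against −0.04, −0.09, −0.16 and 0.00 over all genes. The estimate was negative at all 4 origins for 45 of the 51 members. On the FPKM scale, the mean sum over all members was 49.5% lower in STHSC:MA9, 49.8% in MPP:MA9, 37.6% in CMP:MA9 and 38.1% in GMP:MA9 than in the cell of origin. By sum, samples did not overlap between leukaemia and normal cell at ST-HSC, MPP and CMP, and did at GMP, where leukaemias reached 1566 FPKM and normal samples went down to 1370 FPKM. Of the class sums, H2B was lower by 51.3, 56.0, 45.9 and 41.8% and H1 by 43.7, 40.0, 21.9 and 37.5% in the same order. The ranges of granulocyte, monocyte and red-cell markers and of Kit also differed between leukaemias and most normal groups, as given above, and the tissue may differ. Mitochondrial genes held 29.5 ± 3.11% of summed FPKM in ST-HSC and 18.0 ± 1.72% in STHSC:MA9. The part of these in the changes was not tested. At GMP the mitochondrial share went the other way, with 20.6 ± 4.04% in GMP and 25.5 ± 5.75% in GMP:MA9. As a share of FPKM without mitochondrial genes, members were at 0.502 ± 0.0643% in ST-HSC and 0.234 ± 0.0384% in STHSC:MA9. This share was 0.520 ± 0.0629% in MPP and 0.264 ± 0.0708% in MPP:MA9. It was 0.452 ± 0.0405% in CMP and 0.292 ± 0.0204% in CMP:MA9, and 0.291 ± 0.0604% in GMP and 0.210 ± 0.0581% in GMP:MA9.

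**Figure D3:**
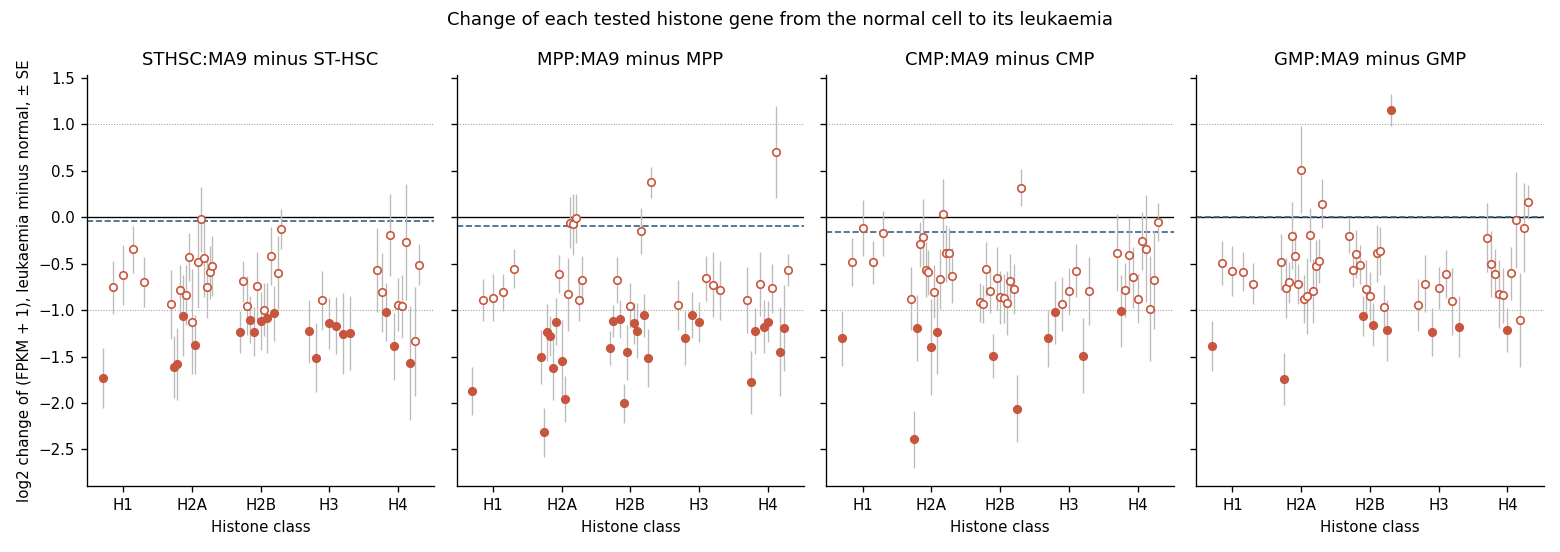
Change of each of the 51 tested members from normal cell to leukaemia (y axis, log2 change of FPKM + 1 with its SE), by class (x axis) and origin (panels). Filled points were called, dotted lines mark a log2 change of 1 and −1 and the dashed line the median of all genes; nearly all points lie below 0, and 1 filled point, Hist2h2be in GMP:MA9, lies above.

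Of the linker histones, Hist1h1a (chr13:23855537-23856283, plus strand, mm9) fell most. Its values in the 5 ST-HSC samples were 106.9, 63.7, 82.2, 91.3 and 82.1 FPKM, and in the 3 STHSC:MA9 samples 25.2, 21.1 and 27.9 FPKM. It ranged from 52.0 to 91.4 FPKM in MPP (median 84.8) and from 9.06 to 33.5 FPKM in MPP:MA9 (median 21.7). In CMP it was at 61.6, 66.3, 55.6, 46.4 and 84.8 FPKM, in CMP:MA9 at 22.2, 28.2, 24.7 and 22.9 FPKM. No leukaemia reached its normal group, also at GMP, where normal samples were at 63.0, 84.7, 57.99, 52.9 and 94.8 FPKM and leukaemias at 9.35 to 46.2 FPKM (median 28.6). The log2 changes were −1.73 ± 0.32 (SE; limma, adjusted p = 3e-05), −1.87 ± 0.26 (7.9e-08), −1.304 ± 0.30 (3e-04) and −1.38 ± 0.27 (4.2e-05) in the order ST-HSC, MPP, CMP and GMP. The other tested H1 genes were not called at any origin. Hist1h1e, the most abundant, was at 358 ± 43.2 FPKM in MPP (n = 6) and 249 ± 64.3 in MPP:MA9 (n = 6), and its log2 changes were −0.70, −0.55, −0.17 and −0.72. Those of Hist1h1b lay between −0.89 and −0.48, of Hist1h1c between −0.87 and −0.11 and of Hist1h1d between −0.81 and −0.35. Hist1h1t, at 0 to 0.81 FPKM, was below the level needed for testing. The make-up of H1 mRNA differed accordingly. Hist1h1a held 13.7 ± 2.06% of the H1 sum in ST-HSC, 11.8 ± 1.12% in MPP, 10.1 ± 1.43% in CMP and 14.8 ± 2.99% in GMP, against 6.98 ± 1.01, 5.42 ± 1.46, 5.08 ± 1.06 and 9.16 ± 1.65% in the leukaemias that arose from them.

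Among the H2A genes, Hist1h2ac was called lower at all 4 origins and Hist1h2ad at 3. Hist1h2ac (chr13:23773336-23775817, minus strand, mm9) is a gene of low level that, in addition to its stem-loop, has a long annotated exon of 2482 bases. It was at 10.2, 6.25, 5.29, 4.19 and 3.49 FPKM in ST-HSC and at 0.92, 2.16 and 0.60 FPKM in STHSC:MA9. In CMP it was at 9.48, 13.7, 4.23, 7.08 and 3.79 FPKM, and in CMP:MA9 at 0.35, 0.47, 0.36 and 0.93 FPKM. MPP samples ranged from 3.79 to 12.1 FPKM (median 7.64) and MPP:MA9 from 0.19 to 1.26 FPKM (median 0.70), and GMP:MA9 from 0.06 to 0.84 FPKM (median 0.37) against 1.5 to 5.92 FPKM in GMP. All leukaemias were thus below all samples of their normal group. The log2 changes were −1.61 ± 0.33, −2.32 ± 0.26, −2.39 ± 0.31 and −1.74 ± 0.28 (limma, adjusted p = 0.00012, 1.6e-09, 2.9e-08 and 2e-06). Hist1h2ak, the most abundant H2A gene, fell from 226 ± 34.2 to 89.7 ± 28.5 FPKM at ST-HSC (log2 change −1.37 ± 0.31) and from 217 ± 41.7 to 59.4 ± 24.0 FPKM at MPP (−1.96 ± 0.25). At CMP and GMP its changes of −0.80 and −0.88 were below the fold limit. Hist1h2ab was called lower at MPP (−1.50 ± 0.29). Hist2h2aa1 and Hist2h2aa2, which cannot be separated, were not called at any origin. Their sum was 165 ± 31.2 FPKM in MPP and 165 ± 46.2 in MPP:MA9, 98.9 ± 29.4 in GMP and 71.7 ± 24.1 in GMP:MA9.

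Of the H2B genes, Hist1h2bg (chr13:23663265-23663882, plus strand, mm9) was called lower at all 4 origins. It was at 75.9 to 99.4 FPKM in ST-HSC against 34.3 to 39.2 FPKM in STHSC:MA9, and at 62.5 to 125 FPKM in MPP (median 105.1) against 15.96 to 30.04 FPKM in MPP:MA9 (median 24.4). The log2 changes were −1.23 ± 0.26, −2.003 ± 0.21, −1.49 ± 0.24 and −1.06 ± 0.22 (limma, adjusted p = 0.00017, 1.7e-10, 2e-06 and 8.1e-05). Hist1h2bk, the most abundant H2B gene, was called lower at MPP (356 ± 95.7 to 162 ± 49.2 FPKM, −1.14 ± 0.22) and GMP (257 ± 63.1 to 119 ± 41.2 FPKM, −1.16 ± 0.23), and its change at ST-HSC, −0.99 ± 0.28, was just inside the fold limit. Hist1h2bf was called lower at ST-HSC (−1.10) and MPP (−1.09), and Hist1h2bh at MPP (−1.46). Hist2h2bb and Hist2h2be, a pair in the chromosome 3 cluster for which no stem-loop was found, went opposite ways at GMP. Hist2h2bb was called lower at MPP (−1.51 ± 0.31), CMP (−2.06 ± 0.36) and GMP (−1.22 ± 0.33), and was at 0.28 to 1.39 FPKM in CMP:MA9 against 4.51 to 7.20 FPKM in CMP. Hist2h2be (chr3:96025044-96027661, plus strand, mm9) was at 4.15, 4.18, 6.90, 3.78 and 5.96 FPKM in GMP and at 8.69 to 17.5 FPKM in GMP:MA9 (median 11.7), with no overlap. Its log2 change was 1.16 ± 0.18 at GMP (limma, adjusted p = 1e-06), against −0.13 ± 0.21 at ST-HSC, 0.38 ± 0.17 at MPP and 0.32 ± 0.20 at CMP.

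Of the 7 H3 genes, 6 were called lower at ST-HSC (85.7%), 3 at MPP (42.9%), 3 at CMP (42.9%) and 2 at GMP (28.6%). Of all genes, 11.9, 13.6, 14.8 and 8.87% were called lower in this order. All 7 H3 estimates were negative at each origin. Hist2h3b carries most of the level of these 7 genes and shares 80.57% of its 31-base stretches with other genes. It fell from 164 ± 45.05 to 72.8 ± 23.8 FPKM at ST-HSC (log2 change −1.17 ± 0.31, limma, adjusted p = 0.0019). Its changes of −0.66, −0.58 and −0.61 at MPP, CMP and GMP were below the fold limit. Hist1h3b was called lower at ST-HSC (−1.51), MPP (−1.298) and CMP (−1.02), Hist1h3e at ST-HSC (−1.14) and MPP (−1.13), Hist1h3c at MPP (−1.05) and GMP (−1.24), and Hist1h3a at ST-HSC (−1.23) and CMP (−1.31). The annotated pseudogene Hist2h3c2, which shares 64.83% of its sequence with other genes, was called lower at ST-HSC (−1.24) and GMP (−1.18), and Hist2h3c1 at ST-HSC (−1.25) and CMP (−1.49).

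Of 11 tested H4 genes, 3 were called lower at ST-HSC (27.3%), 6 at MPP (54.5%), 1 at CMP (9.09%) and 1 at GMP (9.09%). Of all genes, 11.9, 13.6, 14.8 and 8.87% were called lower, so the H4 share was below this at CMP and near it at GMP. Hist1h4d fell from 647 ± 210 to 311 ± 90.1 FPKM at ST-HSC (−1.02 ± 0.31, limma, adjusted p = 0.0068) and from 933 ± 148 to 414 ± 134 FPKM at MPP (−1.22 ± 0.25, 5.8e-05). MPP samples ranged from 690 to 1088 FPKM and MPP:MA9 samples from 223 to 623 FPKM, without overlap. At CMP, 731 ± 168 compared with 418 ± 36.5 FPKM in the leukaemia (−0.78 ± 0.29), and at GMP 309 ± 122 with 203 ± 69.4 FPKM (−0.61 ± 0.26), and both changes were below the fold limit. Hist1h4c was called lower at MPP (−1.78) and CMP (−1.01), Hist1h4i at MPP (−1.12) and GMP (−1.21) and Hist1h4m at ST-HSC (−1.57) and MPP (−1.45). Hist1h4m was above 0 in 27 of 49 samples and at 0 in every STHSC:MA9 sample. It shares 91.67% of its 31-base stretches with Hist1h4n, so its changes are uncertain. Hist1h4j and Hist1h4k were not called at any origin, and the latter had an estimate of 0.70 ± 0.49 at MPP.

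The counts depended on single samples and on the fold limit. Without the limit, 31, 42, 26 and 27 of 51 members were lower at ST-HSC, MPP, CMP and GMP at an adjusted p below 0.05 (limma), beside 24.6, 34.8, 36.0 and 28.7% of all genes. With the ST-HSC samples of high S100a8 left out, 12 members were called lower at ST-HSC. At GMP, 3 were lower without GMP:MA9 replicate 2, the sample of lowest histone level and with 34.5% mitochondrial FPKM, and 13 without GMP:MA9 replicate 4, and Hist2h2be was higher in each case. Correction of each sample for a trend with GC content and exon length gave 17, 30, 18 and 20 members lower and again only Hist2h2be higher.

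**Figure D4:**
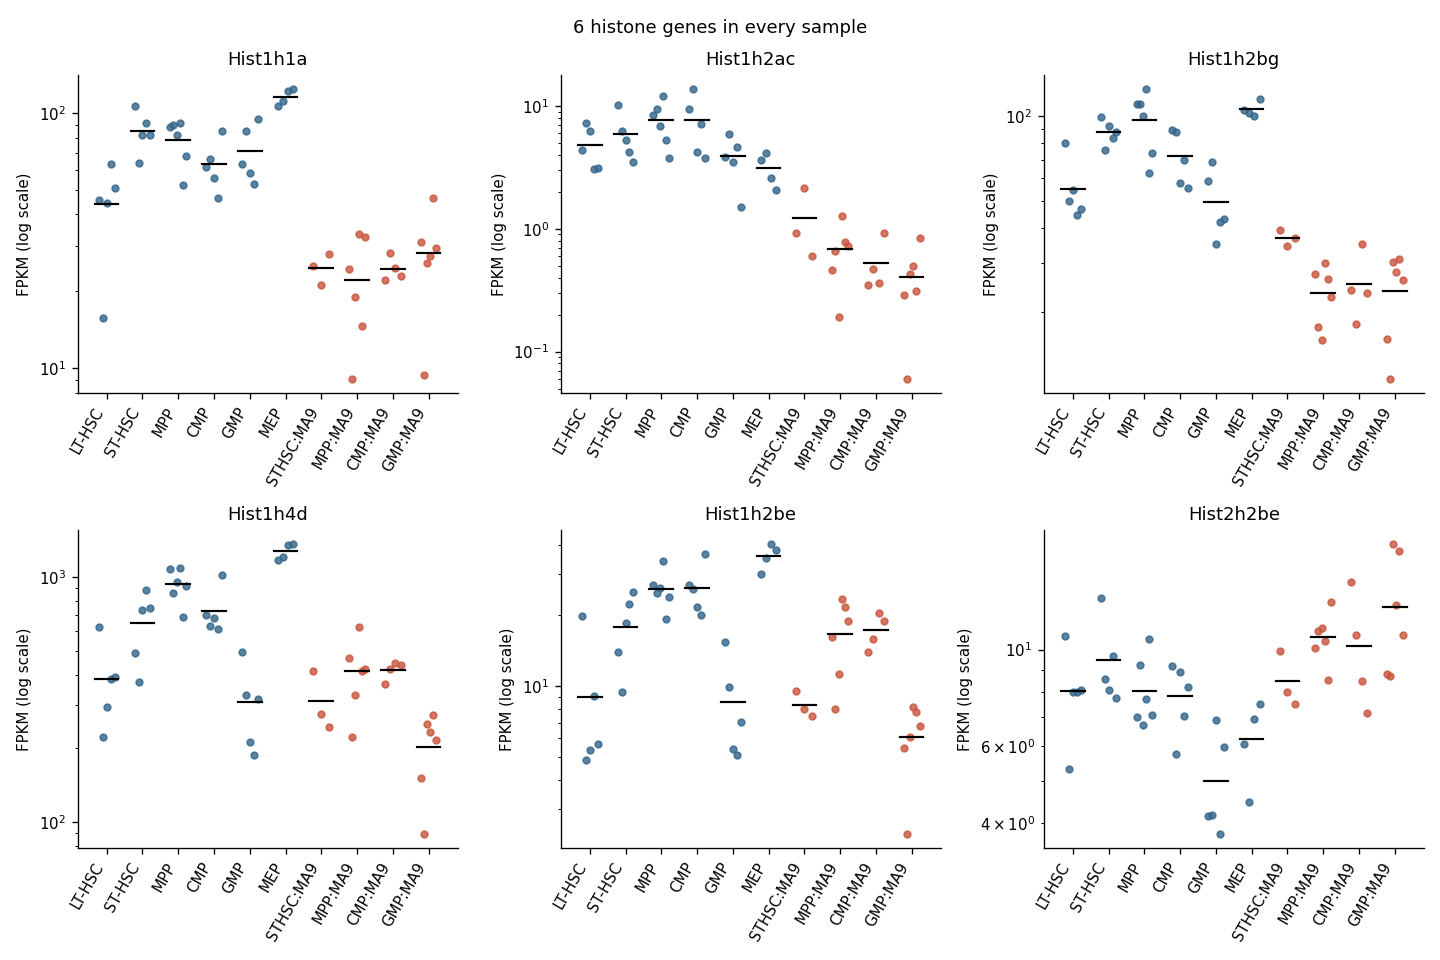
FPKM (y axis, log scale) of 6 members in every sample, by group (x axis), with normal groups in blue, leukaemias in red and group means as black lines. Hist1h1a, Hist1h2ac and Hist1h2bg are lower in each leukaemia group than in its normal cell, Hist1h2be is lowest in GMP:MA9 at 2.36 to 8.18 FPKM, and Hist2h2be is highest there at 8.69 to 17.5 FPKM.

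The shape and place of the gene were set beside the size of the change. At MPP, the median log2 change was −1.13 for 35 members with a stem-loop and exons under 1000 bases and −0.72 for 13 members of 1000 bases or more, and at ST-HSC −0.99 and −0.60. At CMP and GMP the same medians were −0.79 and −0.63, and −0.70 and −0.59. The 40 tested members on chromosome 13 had a median of −1.13 at MPP and the 10 on chromosome 3 of −0.61. Members with over 50% shared sequence had medians of −1.05, −1.10, −0.79 and −0.66 against −0.75, −0.89, −0.59 and −0.61 for the others. These are descriptions, and no difference between such sets was tested.

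For few members did the leukaemic change depend on the origin. By limma's F test of a difference among the 4 origins, 4 of 51 members passed an adjusted p of 0.05, beside 38.0% of all 12600 genes. The smallest p was that of Hist2h2be (limma F test, adjusted p = 0.0022), whose changes are given above. Hist1h2bb, an H2B gene, had changes of −1.24 ± 0.23, −1.41 ± 0.18, −0.91 ± 0.21 and −0.20 ± 0.19 at ST-HSC, MPP, CMP and GMP (limma F test, adjusted p = 0.0024). Its normal levels were 66.3 ± 12.6, 68.5 ± 16.3, 57.5 ± 3.99 and 43.0 ± 8.90 FPKM, and its leukaemia levels 27.8 ± 7.30, 25.0 ± 5.34, 30.99 ± 8.59 and 37.5 ± 8.57 FPKM. The other 2 were Hist1h2ak (limma F test, adjusted p = 0.034), with its largest fall at MPP, and the pseudogene Hist1h2aj (0.037), at −1.12, −1.55, −1.40 and 0.51. Hist1h2aj shares 92.88% of its 31-base stretches with Hist1h2ai and overlaps exons of Hist1h2bm on the other strand. It ranged from 0.35 to 22.1 FPKM in CMP:MA9, so its values are uncertain. Hist1h2bg came next and did not pass (limma F test, adjusted p = 0.054). Without MPP replicate 4 or without GMP replicate 3, 2 members passed, and without GMP:MA9 replicate 2, 10 passed.

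Compared with each other, the leukaemias differed in few histone genes, all of them between GMP:MA9 and MPP:MA9 or CMP:MA9. Among 47 members tested in the 6 pairs, 6 were called in at least 1 pair (12.8%), beside 4.82% of 12128 genes. All 6 were higher in MPP:MA9 than in GMP:MA9 (1.39% of all genes): Hist1h2an (log2 difference 1.32 ± 0.34), Hist1h2be (1.297 ± 0.25), Hist2h2aa2 (1.29 ± 0.38), Hist1h4k (1.28 ± 0.37), Hist2h2aa1 (1.17 ± 0.26) and Hist1h4d (1.05 ± 0.26), with limma adjusted p between 0.0018 and 0.027. Hist1h2be also exceeded GMP:MA9 in CMP:MA9 (1.42 ± 0.28, limma, adjusted p = 0.017), where 0.173% of all genes were called higher. It was at 13.95 to 20.5 FPKM in CMP:MA9, at 8.02 to 23.5 FPKM in MPP:MA9 (median 17.6) and at 2.36 to 8.18 FPKM in GMP:MA9 (median 6.44), so that GMP:MA9 overlapped with the lowest MPP:MA9 sample and not with CMP:MA9. In STHSC:MA9 it was at 9.53, 7.96 and 7.48 FPKM, which overlaps GMP:MA9. In the other 4 pairs, STHSC:MA9 against GMP:MA9 among them, limma called no member. At an unadjusted p under 0.05 were 5 of 47 for STHSC:MA9 against MPP:MA9 (27.7% of all genes), 6 against CMP:MA9 (15.5%) and 8 against GMP:MA9 (18.9%), and 1 for MPP:MA9 against CMP:MA9 (9.35%). Without MPP:MA9 replicate 4, the sample of highest histone level in its group, 3 members were called in at least 1 pair. With the GC content and length correction, Hist1h2be alone of the 6 kept its call between MPP:MA9 and GMP:MA9 (1.37, limma, adjusted p = 0.0027), the other 5 had adjusted p of 0.11 to 0.26, and the member median moved from 0.35 to 0.05. Mitochondrial genes held 15.9 ± 2.22% of summed FPKM in MPP:MA9 and 25.5 ± 5.75% in GMP:MA9. As a share of FPKM without mitochondrial genes, the 58 members were at 0.264 ± 0.0708% in MPP:MA9 and 0.210 ± 0.0581% in GMP:MA9.

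Among normal cells, histone genes were lower in LT-HSC than in ST-HSC. The steps address how expression changes along normal differentiation, and 53 members were tested among 12367 genes. Of these, 8 were called lower in LT-HSC (15.1%), beside 1.5% of all genes, and the median member changed by −0.63 against −0.12 over all genes. The largest was Hist1h2ag, an H2A gene, at 2.42 to 11.4 FPKM in the 5 LT-HSC samples and 16.1 to 26.2 FPKM in the 5 ST-HSC samples (log2 difference −1.71 ± 0.25, limma, adjusted p = 8.6e-05). It was followed by Hist2h2ab (−1.61 ± 0.31), Hist2h3c2 (−1.49 ± 0.44), Hist1h3a (−1.35 ± 0.39) and Hist2h3b (−1.19 ± 0.26), and Hist1h2bp, Hist1h1a and Hist1h2be were at −1.06, −1.05 and −1.03. This count was unstable: it was 18 without LT-HSC replicate 1 and 3 without LT-HSC replicate 2, and 13, 5, 5 and 4 without ST-HSC replicates 2, 3, 4 and 5. It was 6 without the libraries of high S100a8, and 3 with samples scaled to the median gene. In a fit of LT-HSC and ST-HSC alone limma called none of 52 members, and 22 had an unadjusted p under 0.05 (11.2% of all genes), as against 27 of 53 in the fit of all 6 normal groups (22.4%). Hbb-b1 and S100a8 were highest in some LT-HSC libraries, and Cd79a reached 38.1 FPKM in LT-HSC and 25.3 FPKM in ST-HSC, as given above. The part of these genes was not tested.

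From ST-HSC to MPP and from MPP to CMP no member was called by limma, beside 3.44% and 4.32% of all genes, and 4 and 5 of 53 had an unadjusted p under 0.05, beside 32.1% and 28.2% of all genes. In the second of these, Hist1h2ak was higher in MPP by 0.81 ± 0.21 (limma, adjusted p = 0.0084), below the fold limit. In CMP compared with GMP, 7 of 53 were higher in CMP (13.2%), beside 7.94% of all genes: Hist1h2aj (1.73 ± 0.36), Hist1h2be (1.58 ± 0.29), Hist1h4d (1.3 ± 0.25), Hist1h2ab (1.15 ± 0.36), Hist1h2bp (1.11 ± 0.33), Hist2h2aa1 (1.10 ± 0.29) and Hist1h3a (1.01 ± 0.39), with limma adjusted p from 9.5e-05 to 0.044. Hist1h4d was at 613 to 1024 FPKM in CMP and 187 to 497 FPKM in GMP. The median over all genes was itself 0.20 higher in CMP, and with samples scaled to the median gene 3 members were called. With the GC content and length correction 2 were higher in CMP and 1 lower, and without GMP replicate 3, 4 were higher.

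In MEP, 7 of 53 members were above CMP (13.2%), beside 2.34% of all genes, and 2 were below (3.77%), beside 9.49%. The 7 were Hist1h2ak (−1.41 ± 0.23 as CMP minus MEP, limma, adjusted p = 2.4e-05), Hist1h2bh (−1.40 ± 0.25), Hist1h2ab (−1.20 ± 0.38), Hist1h4c (−1.10 ± 0.26), Hist1h4f (−1.08 ± 0.35), Hist2h2ac (−1.04 ± 0.33) and the linker histone Hist1h1b (−1.01 ± 0.30). Hist1h2ak was at 106 to 155 FPKM in CMP and 295 to 387 FPKM in MEP, and Hist1h1b at 121 to 248 and 288 to 332 FPKM, in either case without overlap. The 2 members that were higher in CMP, Hist2h2aa1 (1.19 ± 0.31) and Hist2h3c1 (1.17 ± 0.38), overlap each other's exons, and the summed level of Hist2h2aa1 and its identical copy was 171 ± 26.5 FPKM in CMP and 163 ± 22.4 in MEP. With samples scaled to the median gene, 11 members were higher in MEP and 2 in CMP. Without CMP replicate 2, 4 members were higher in MEP and 1 in CMP, and without CMP replicate 4, 3 and 1. Klf1, Hbb-b1 and Cd79a were also higher in mean in MEP than in CMP, at 119 against 34.1, 976 against 277 and 21.9 against 1.64 FPKM, and their part was not tested.

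Genes that make, escort or replace these histones were set beside them, against the 11.9, 13.6, 14.8 and 8.87% of all genes called lower at ST-HSC, MPP, CMP and GMP. Of 11 histone genes listed as outside the replication-dependent set, 9 were tested. None was called higher in any leukaemia, beside 13.5% of all genes called higher at GMP. H2afx, whose phosphorylated product marks DNA breaks, fell at ST-HSC (log2 change −1.18 ± 0.25), and H2afy, the gene of macroH2A, at MPP (−1.66 ± 0.17) and CMP (−1.25 ± 0.20), which is 1, 1, 1 and 0 of 9 at the 4 origins and no more than the share of all genes. Of 18 listed factors that transcribe, process or degrade histone mRNA, 16 were tested and 1, 1, 4 and 1 were called lower, a share above that of all genes at CMP alone. In each case this included Zcchc11, a terminal uridylyltransferase, by −4.47 ± 0.31, −3.74 ± 0.25, −3.40 ± 0.29 and −3.02 ± 0.26 (limma, adjusted p = 2.8e-14, 2.3e-15, 3e-12 and 9.3e-12). It was at 16.8 to 60.6 FPKM in the 6 normal groups and at 0.71 to 8.49 FPKM in leukaemias. At CMP the others were Cpsf2 and Cstf2, subunits of the cleavage machinery, and Ncbp2, which binds the mRNA cap, at −1.06, −1.01 and −1.06. Slbp itself and Npat, the coactivator of histone transcription, were not called. Slbp was at 44.6 to 69.7 FPKM in STHSC:MA9 against 66.1 to 81.8 FPKM in ST-HSC, and Npat at 6.73 to 7.58 against 10.5 to 17.15 FPKM.

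Of 16 histone chaperones and partners, 1, 4, 7 and 6 were called lower at ST-HSC, MPP, CMP and GMP and none higher, with median changes of −0.26, −0.62, −0.92 and −0.77. Its share was below that of all genes, at 11.9%, at ST-HSC and above the 13.6, 14.8 and 8.87% of all genes at the others. Ipo4, which carries histones into the nucleus, fell at ST-HSC (−1.22 ± 0.31), MPP (−1.96 ± 0.25) and CMP (−1.96 ± 0.29), and Chaf1b, a subunit of the chaperone CAF-1, at MPP (−1.44 ± 0.14) and CMP (−1.48 ± 0.17). Hat1, which acetylates new H4, fell at GMP (−1.51 ± 0.16), from 130 to 175 FPKM in GMP to 39.9 to 77.3 FPKM in GMP:MA9, and its partner Rbbp7 at MPP (−1.34), CMP (−1.29) and GMP (−1.26). Of 27 S phase genes, 0, 10, 15 and 12 were called lower and none higher, with medians of −0.39, −0.87, −1.08 and −0.93, a share likewise below that of all genes at ST-HSC and above it at MPP, CMP and GMP. The largest fall at each of these origins was that of Gins2, a helicase subunit, at MPP (−1.54 ± 0.23) and GMP (−1.67 ± 0.25) and of Mcm2, another, at CMP (−1.59 ± 0.21). Pola1, the catalytic subunit of DNA polymerase alpha, fell at MPP (−1.48 ± 0.16), and the licensing factor Cdc6 at CMP and GMP (−1.45 and −1.43). The S phase list thus had its fewest calls at ST-HSC, where 20 histone genes were called, and its most at CMP, where 11 were, and this difference in order was not tested.

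**Figure D5:**
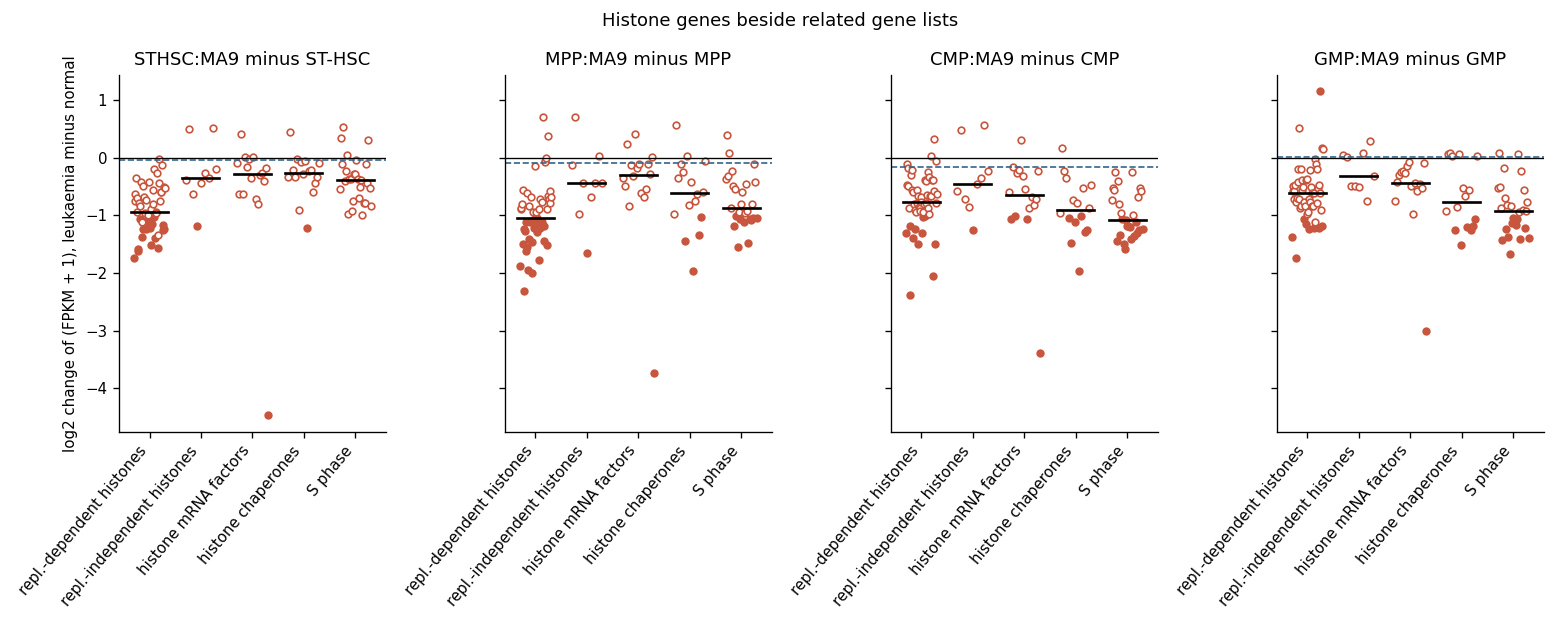
Log2 change of FPKM + 1 from normal cell to leukaemia (y axis) of single genes in the 51 tested replication-dependent histone genes and 4 related lists (x axis), by origin (panels). Filled points were called, black bars are list medians and the dashed line is the median of all genes; the isolated point near the bottom of each panel is Zcchc11.

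Between normal cells few genes of the related lists were called. Between LT-HSC and ST-HSC, none of the 27 S phase genes, 16 chaperones and 16 mRNA factors was called. Over all genes only 1.5% were called lower in LT-HSC, so lists of this size may hold no call, and equal levels are not shown. The median S phase gene was at −0.45 in LT-HSC, against −0.12 over all genes. There, 8 histone genes were called, and H2afy (−1.40 ± 0.16) and H2afx (−1.05 ± 0.25) were lower. In CMP compared with MEP, 7 histone genes were higher in MEP, beside 2.34% of all genes. Of the S phase genes, 1 was higher in MEP, namely Ccne1, which drives entry into S phase (−1.79 ± 0.32 as CMP minus MEP). H2afy was lower in MEP (2.51 ± 0.17), as were 9.49% of all genes. In CMP compared with GMP, H2afx (1.12 ± 0.25) and Ipo4 (1.36 ± 0.22) were higher in CMP, beside 7.94% of all genes, and no S phase gene was called.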

How the data were processed

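RNA was measured in 49 samples of 10 groups. The authors deposited 1 table of FPKM per gene with 2 decimals. Their reads came from amplified cDNA (NuGEN Ovation V2, oligo-dT and random primers), the latter not needing a poly(A) tail, and were quantified with RSEM against mm9 according to the submitters' processing notes. The aligner is not given in the sources used here. Read counts were not used here, and low values gave no shared step for 1 read, with 22.3% of 1176 sample pairs within 0.1 log2. The methods state a minimum number of reads per sample, but the depth of each library is unknown. The 19 table columns that match no label were not used.

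Groups came from the labels. The methods describe the samples of a group as independent biological replicates, but the labels name no animals or experiments. No pair of samples held identical values. Members were found by symbol in the annotation. Genes whose mean reached 1 FPKM in the samples fitted were tested on log2(FPKM + 1) with limma 3.58.1 in R 4.3.3 (empirical Bayes with a mean-variance trend), in 1 fit each for the matched groups, the normal groups and the leukaemias. Fold changes on this scale understate those of low genes. Benjamini-Hochberg adjustment was over all genes tested. Calls needed an adjusted p under 0.05 together with a log2 change beyond 1 in either direction. The members, lists and tests were chosen with earlier results of these data known. Genes named were all H1 members, the 4 most abundant of each core class, the 5 largest rises and falls called per comparison, the 5 smallest p among origins, and called genes of related lists. Alternatives were pseudocount 0.1, no filter, scaling to the median gene, GC and length correction, a replicate block, only the groups compared, and each sample left out. Same-numbered samples deviated together in LT-HSC and ST-HSC, where all 5 pairs had correlations of 0.14 to 0.68. Scripts were tested on simulated data. Red-cell and B cell markers are given as single genes, and 1 marker of each list is not reported here.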

Additional observations from a re-analysis of the deposited data

Results flagged for a closer look

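Among 243 sets of samples in 1 group over 27 sums and genes, 12 held a sample far from the rest by Dixon's criterion. Chance gives about 1 in 20, so 12 is near the number that chance gives. Of these 12, 8 concerned CMP replicate 5. These 8 are not separate, because Hist1h4d, Hist2h3b and Hist1h1e each make up most of their class sum. Its summed H1 level was 893.77 FPKM (nearest sample 622.36), its H3 sum 388.99 FPKM (270.18), its H4 sum 1093.2 FPKM (768.33) and its sum over all members 3891.9 FPKM (2933.3). Single genes flagged there were Hist1h1e at 499.55 FPKM (343.16), Hist1h4d at 1024.2 FPKM (702.58), Hist2h3b at 245.05 FPKM (174.27) and Hist2h2aa2 at 141.74 FPKM (78.81). In LT-HSC replicate 1, Hist1h2bg was at 80.03 FPKM (54.56) and Hist1h3e at 23.34 FPKM (12.45). In ST-HSC replicate 2, the H1 sum was low at 421.68 FPKM (645.17) and Hist1h3e at 11.29 FPKM (20.32).

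The leukaemic change differed among origins for 4 members by limma's F test, namely Hist2h2be (adjusted p = 0.0021508), Hist1h2bb (adjusted p = 0.0024223), Hist1h2ak (adjusted p = 0.033862) and Hist1h2aj (adjusted p = 0.037008).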

How the results depend on the processing

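No named change reversed its direction under any alternative run, among 87 results. Without the fold limit, limma called 31 members at ST-HSC, 42 at MPP, 26 at CMP and 28 at GMP (leukaemia against normal), 15 for LT-HSC against ST-HSC, 2 for MPP against CMP, 20 for CMP against MEP and 16 for CMP against GMP. With GC and length correction, 18 were called at CMP, 21 at GMP, 5 for LT-HSC against ST-HSC, 3 for CMP against GMP and 2 in the leukaemia pairs, and with this correction and a replicate block 17, 21, 5, 3 and 1. With pseudocount 0.1, 15 were called at GMP and 1 for MPP against CMP. Without the filter, 5 were called for LT-HSC against ST-HSC and 2 differed among origins. With scaling to the median gene, 3 were called for LT-HSC against ST-HSC and 3 for CMP against GMP. In the fit of LT-HSC and ST-HSC alone 0 were called by limma and 22 had an unadjusted p under 0.05, and without libraries of high S100a8 12 were called at ST-HSC. The cause of these shifts was not tested. Scaling to the median gene moved the median of all genes from 0.20 to 0.01 in CMP against GMP, from 0.14 to 0.00 in CMP against MEP and from −0.16 to −0.01 at CMP.

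Leaving out each sample in turn gave 15 to 25 calls at ST-HSC, 21 to 32 at MPP, 9 to 14 at CMP, 4 to 14 at GMP, 3 to 18 for LT-HSC against ST-HSC, 4 to 9 for CMP against GMP, 4 to 12 for CMP against MEP, 2 to 10 among origins and 3 to 8 in the leukaemia pairs. A replicate block gave 16, 27, 9 and 11 calls at ST-HSC, MPP, CMP and GMP. It gave 9 for LT-HSC against ST-HSC, where same-numbered samples deviated together, although the labels do not say whether they are paired. With this block, 4 of the 87 named results fell short of the threshold. Same-numbered samples in the other comparisons had correlations from −0.37 to 0.31. Of the 87, 16 fell short with GC and length correction, 14 with scaling to the median gene and 13 with only the groups compared. The depth of each library is unknown, so its limits on low genes could not be given.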
